A study of Homo sapiens with 16 samples.

Results

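The androgen response that is left when enzalutamide is present was measured in Ver cells, a line derived from the prostate cancer cell line VCaP by 4 months in 1 µM enzalutamide. Ver cells given 1 nM dihydrotestosterone (DHT) together with 1 µM enzalutamide for 24 h (2 libraries) were compared with Ver control cells (2 libraries). The libraries were chosen by their labels alone, 4 of the 16 in the series, and 22553 genes had enough counts to be tested. Ver cells given 1 nM DHT alone (2 libraries) or 1 µM enzalutamide alone (2 libraries) show the same genes under each agent by itself. The combined treatment was also applied to Vc cells (2 libraries), VCaP cells kept for 4 months in ethanol, and compared with Vc control cells (2 libraries). Before treatment every culture was kept without steroid, in medium lacking phenol red and supplemented with charcoal-stripped serum, for 48 h or more.

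Ver and Vc are 1 line each, so the history of drug exposure cannot be told apart from other differences between the lines. All Ver libraries carry one lane label and all Vc libraries another, so lane and line cannot be told apart either. The labels do not say whether the 2 libraries of a group came from separate cultures, whether drug was present during starvation, or what the control medium contained. The p-values therefore measure only the spread between these libraries, which may be technical.

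The androgen receptor is a steroid-activated transcription factor. DHT, its strongest natural ligand, releases it from chaperones, and the receptor then enters the nucleus, binds DNA and raises genes of luminal prostate cells such as KLK3, which encodes prostate-specific antigen. In cells of this kind androgen also raises genes of lipid synthesis and of the secretory pathway, and represses some genes that are active when androgen is withdrawn. Enzalutamide competes with DHT for the ligand-binding pocket and hinders nuclear entry and DNA binding. VCaP cells carry an amplified androgen receptor gene and the TMPRSS2-ERG fusion, which places the transcription factor ERG under an androgen-regulated promoter.

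The 4 libraries held 9554571 to 10560260 gene counts each. Reads that the counting assigned to no gene feature made up 45.9% and 45.0% of each library's reads under DHT plus enzalutamide and 49.0% and 48.7% in control. The 2 libraries under DHT plus enzalutamide differed by more than 1.5-fold at 112 of 12428 genes of at least 5 CPM, and the 2 control libraries at 84. On the first principal component of all 16 libraries, which held 57.8% of the variance, Ver cells under DHT plus enzalutamide scored 9.27 and 14.8, those under DHT 55.9 and 56.2, those under enzalutamide -35.7 each, and Ver controls -28.7 and -29.8. The combined treatment thus lay between control and DHT, and its replicate 2 lay nearer to DHT than its replicate 1. Counts of 8 luminal prostate markers summed to 75509 and 77017 under DHT plus enzalutamide and to 47843 and 53539 in control, several of them androgen targets themselves. Basal markers summed to 22 and 15 counts under DHT plus enzalutamide and to 3 and 6 in control; nearly all were KRT14, and KRT5 was at 0 in all 4 libraries. Immune markers summed to 12 and 6 counts under DHT plus enzalutamide and to 3 and 17 in control, with CD3D and CD68 at 0.

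Under DHT plus enzalutamide Ver cells raised genes of secretory protein folding, sterol synthesis and the canonical androgen programme, and lowered genes of DNA replication. In all, 5117 of 22553 genes (22.7%) passed the threshold of an adjusted p under 0.05: 2788 were higher (12.4%) and 2329 lower (10.3%). A change of at least 2-fold was found in 378 of the genes called higher (1.68% of genes tested) and in 636 of those called lower (2.82%). For scale, DHT alone against the same controls gave 9936 calls (44.1%; 21.2% higher and 22.9% lower) and enzalutamide alone 255 (1.13%). These 3 comparisons share the 2 Ver control libraries, so their values are set side by side here and their differences were tested directly between treatments. The median log2 change of all genes tested was -0.02.

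**Figure D1:**
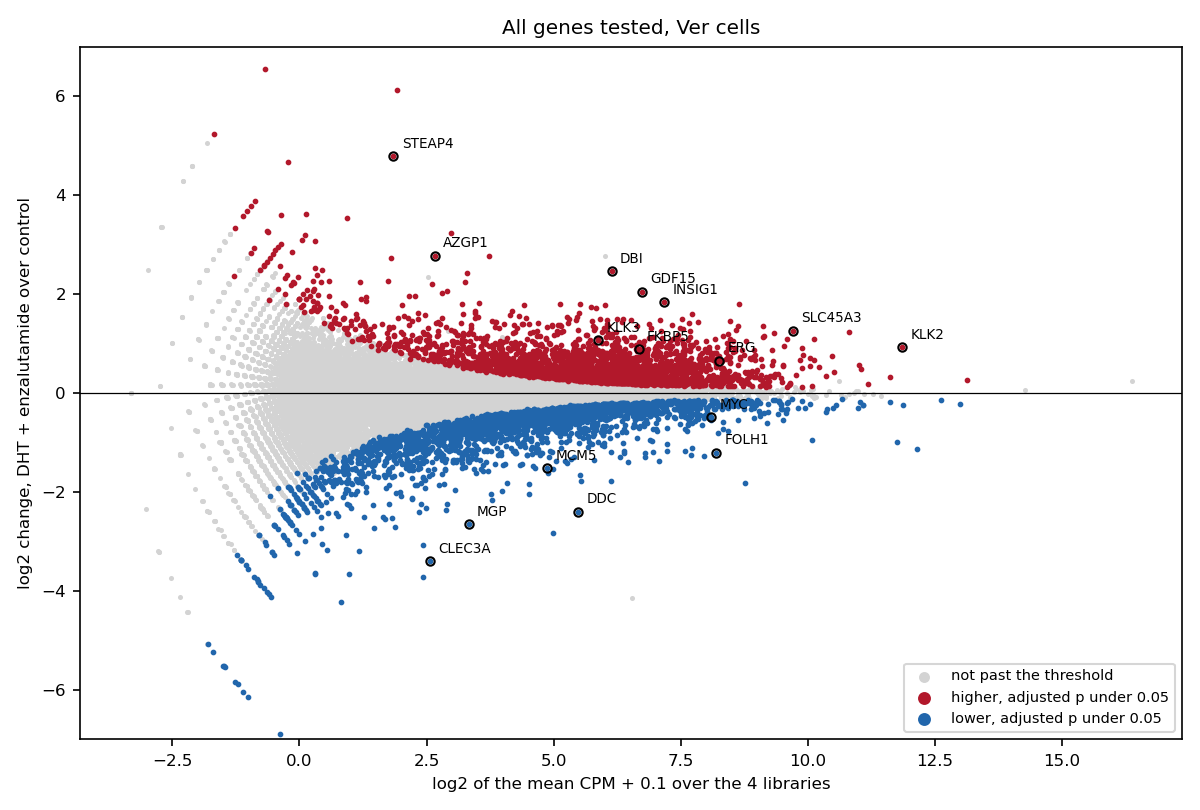
Log2 change under DHT plus enzalutamide over control in Ver cells (vertical axis) against the log2 of the mean CPM + 0.1 over the 4 libraries (horizontal axis), 1 point for each of 22553 genes. Red points were called higher, blue points lower and gray points not called. Of the genes labelled by name, STEAP4, AZGP1 and DBI are the highest and CLEC3A, MGP and DDC the lowest. All genes tested ranged from -6.90 to 6.55.

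The classical androgen targets were raised, but not all to the same part of the level that DHT alone gave. KLK3 (chr19:50854915-50860764, GENCODE release 29 on GRCh38), the prostate-specific antigen gene, had 84.6 and 74.6 CPM under DHT plus enzalutamide, 87.2 and 86.7 CPM under DHT, 35.4 and 31.9 CPM under enzalutamide and 39.2 and 36.9 CPM in control. The libraries with both compounds overlapped none of the controls and lay just under those with DHT alone. Its log2 change over control was 1.07 (SE 0.09, adjusted p = 1.5e-20), and the log2 difference from DHT alone was -0.13 (SE 0.09, adjusted p = 0.295), which did not pass the threshold. KLK2, a neighbouring kallikrein that activates prostate-specific antigen, had 4794 and 4892 CPM under DHT plus enzalutamide, 5546 and 5262 CPM under DHT, 2040.2 and 2031 CPM under enzalutamide and 2490.3 and 2605 CPM in control. It rose over control by 0.93 (SE 0.04, adjusted p = 2.6e-46) on the log2 scale. The log2 difference of KLK2 from DHT alone was -0.16 (adjusted p = 0.00104), and without DHT replicate 1 it was -0.12 (adjusted p = 0.0778).

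SLC45A3, which encodes the luminal membrane transporter prostein, had 1149 and 1195 CPM under DHT plus enzalutamide, 1044 and 984 CPM under DHT, 266 and 281 CPM under enzalutamide and 464 and 513 CPM in control. Its level was above DHT alone in both libraries, with a log2 difference of 0.21 (SE 0.05, adjusted p = 0.00017), and above control with a log2 change of 1.26 (SE 0.05, adjusted p = 5e-53).

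FKBP5, a co-chaperone of steroid receptors, lay at the other end. It had 114 and 149 CPM under DHT plus enzalutamide, 1711 and 1845 CPM under DHT, 61.4 and 60.5 CPM under enzalutamide and 68.95 and 74.1 CPM in control. The log2 change over control was 0.88 (SE 0.08, adjusted p = 2.8e-10), while DHT alone gave 4.63; the log2 difference between the combination and DHT alone was -3.75 (SE 0.07, adjusted p = 4.9e-27). The pair of libraries with both compounds was far closer to control than to DHT, and replicate 2 was the higher one. TMPRSS2, a membrane serine protease, had 206 and 242 CPM under DHT plus enzalutamide, 702 and 686 CPM under DHT, 109 and 121 CPM under enzalutamide and 159 and 162 CPM in control. ERG, the oncogenic partner of the fusion, had 343 and 403 CPM under DHT plus enzalutamide, 814 and 826 CPM under DHT, 150.1 and 153 CPM under enzalutamide and 240.4 and 233 CPM in control. In both genes the libraries with both compounds lay above all controls and below all DHT libraries, with log2 changes over control of 0.48 (SE 0.06, adjusted p = 1.7e-12) for TMPRSS2 and 0.66 (SE 0.05, adjusted p = 1.3e-22) for ERG. STEAP4, a metalloreductase, was nearly silent without androgen. It had 5.34 and 8.21 CPM under DHT plus enzalutamide, 76.5 and 84.2 CPM under DHT, 0.345 and 0.272 CPM under enzalutamide and 0.194 and 0.268 CPM in control, and so few control counts make its fitted log2 change of 4.797 uncertain.

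**Figure D2:**
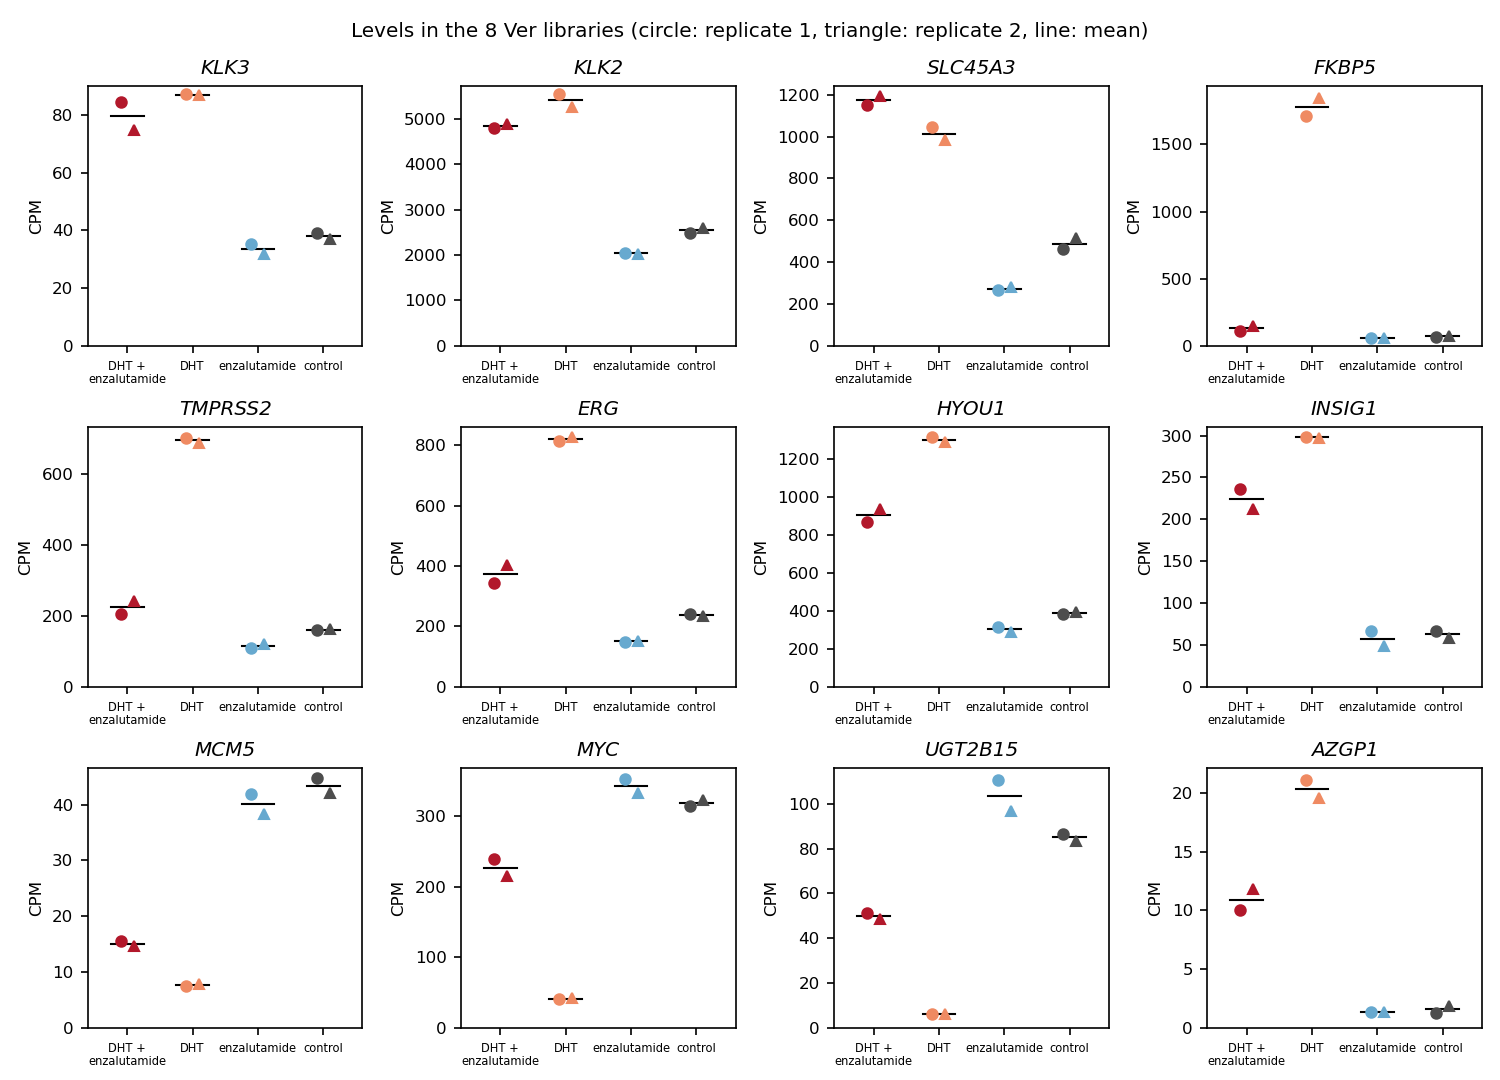
CPM (vertical axes, each from 0) of 12 genes in the 8 Ver libraries by treatment (horizontal axes), with circles for replicate 1, triangles for replicate 2 and a line for the mean of 2. KLK3, KLK2 and SLC45A3 under DHT plus enzalutamide are near or above their DHT level, while FKBP5 is at 114 and 149 CPM against 1711 and 1845 CPM under DHT.

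Across the list of 42 tested androgen-induced genes, 27 were called higher, 3 lower and 12 not called, with a median log2 change of 0.57. Of all genes 12.4% were called higher and 10.3% lower. Under DHT alone 37 of the list members were called higher (21.2% of all genes were) and their median log2 change was 1.44. Their mean log2(CPM + 2), set against the control mean, was 0.44 and 0.55 under DHT plus enzalutamide, 1.33 and 1.38 under DHT, -0.16 and -0.20 under enzalutamide and -0.01 and 0.01 in control. Among the members called higher were DBI, which binds acyl-CoA esters, with a log2 change of 2.46, the cold channel gene TRPM8 with 1.81, TSC22D3 (GILZ, a leucine-zipper protein) with 1.51 and the acyl-CoA synthetase gene ACSL3 with 1.45. The members called lower were ADAMTS1 with -1.396, AMIGO2 with -1.21 and HPGD, a prostaglandin-degrading enzyme, with -0.69. ADAMTS1 and AMIGO2 were also lower under DHT alone, whereas HPGD had a log2 change of 1.004 under DHT alone.

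The members differed in how close the combination came to DHT alone. In the direct test, 34 of 42 members were lower under the combination (13.2% of all genes were), 5 were higher (13.7% of all genes) and 3 were not called. Among the members above DHT alone were SLC45A3, TRPM8, TRGC1 and AMIGO2. TRPM8 had 71.9 and 70.4 CPM under DHT plus enzalutamide, 45.7 and 52.7 CPM under DHT, 9.202 and 7.44 CPM under enzalutamide and 22.2 and 18.5 CPM in control; its log2 difference from DHT alone was 0.53 (SE 0.08, adjusted p = 5.1e-09). NCAPD3, a condensin subunit, had 122 and 162 CPM under DHT plus enzalutamide, 1476 and 1558 CPM under DHT, 90.4 and 97.9 CPM under enzalutamide and 98.2 and 93.9 CPM in control, and fell short of DHT alone with a log2 difference of -3.42 (SE 0.08, adjusted p = 1.4e-17). EAF2, an elongation factor partner, likewise had a log2 change of 0.88 over control, against 2.85 for DHT alone.

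Short promoter stretches are shown for KLK3 and TRPM8 because KLK3 lay just under its DHT level, TRPM8 lay above it, and both hold the receptor's half-site in the window searched. The window ran from 250 bases before to 50 after each RefSeq start (GRCh38.p14), both strands were searched, and capitals mark the word AGAACA, which lies 170 bases before the start of KLK3 and 166 bases before that of TRPM8.
KLK3 (chr19:50854725-50854770, plus strand): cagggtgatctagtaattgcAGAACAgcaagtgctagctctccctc
TRPM8 (chr2:233979963-233980008, plus strand): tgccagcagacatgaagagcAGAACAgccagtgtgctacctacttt
PMEPA1 and FKBP5 hold the half-site too, and FKBP5 fell far short of its DHT level, with a log2 difference of -3.75. In all the word was found in 4 of 22 called list members with a window (18.2%), against 13.3% of 11987 genes tested with a window and 17.5% of all 27305. The full palindrome, AGAACA and TGTTCT with any 3 bases between, which contains the half-site, was found in none of these members and in 1 gene of 27305.

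Androgen-repressed genes moved the other way. Of 16 tested, 8 were called lower and 2 higher, where 10.3% of all genes were lower and 12.4% higher. The median log2 change was -0.53, and under DHT alone it was -2.85. MYC, the growth-promoting transcription factor, had 239 and 215 CPM under DHT plus enzalutamide, 40.3 and 43.1 CPM under DHT, 353 and 333 CPM under enzalutamide and 315 and 323 CPM in control. All libraries with both compounds were below all controls, with a log2 change of -0.49 (SE 0.05, adjusted p = 7e-14), but they stayed well above DHT alone, with a log2 difference of 2.45 (SE 0.07, adjusted p = 6.9e-73). UGT2B15, which conjugates androgens to glucuronic acid, had 51.5 and 48.6 CPM under DHT plus enzalutamide, 6.15 and 6.18 CPM under DHT, 111 and 96.7 CPM under enzalutamide and 86.7 and 83.5 CPM in control, and a log2 change over control of -0.76 (SE 0.10, adjusted p = 2.6e-11). Its homologue UGT2B17, with which it can share reads, had a log2 change of -1.01 (adjusted p = 0.0551), and without control replicate 2 that was -1.33 (adjusted p = 0.0353). DDC, aromatic amino acid decarboxylase, had 14.2 and 14.2 CPM under DHT plus enzalutamide, against 73.2 and 77.1 CPM in control, a log2 change of -2.401 (SE 0.12, adjusted p = 1.6e-43). The members called higher were CHRNA2, a nicotinic receptor subunit, with 0.94, and the imprinted gene PEG3 with 0.80. CHRNA2 was also higher under DHT alone, with a log2 change of 1.25. Fewer members were called higher without control replicate 2 or without replicate 2 of the combination.

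Genes of protein folding in the endoplasmic reticulum rose as a whole. Cells that secrete much protein rely on this machinery, and its stress response is relayed by IRE1, PERK and ATF6. All 23 tested members were called higher, where 12.4% of all genes were, with a median log2 change of 0.96 and of 1.57 under DHT alone. HYOU1, a chaperone of the reticulum, had 869 and 935 CPM under DHT plus enzalutamide, 1315 and 1286 CPM under DHT, 315 and 290.5 CPM under enzalutamide and 385 and 392 CPM in control. Its log2 change over control was 1.22 (SE 0.05, adjusted p = 2.7e-49), and both libraries with both compounds lay above all controls and below all DHT libraries. PDIA4, a protein disulfide isomerase, had a log2 change of 1.13 (SE 0.05, adjusted p = 8.7e-46), and TRIB3, a pseudokinase induced by ATF4, one of 1.300 (SE 0.06, adjusted p = 3.2e-46). DNAJB9 rose by 1.73, SDF2L1 by 1.62, HSPA5 (BiP) by 0.95 and ATF6 by 0.39 on the log2 scale. In the direct test all 23 members were lower under the combination than under DHT alone, where 13.2% of all genes were. Their median log2 difference was -0.52. The list's mean log2 level above control was 0.91 and 1.06 under DHT plus enzalutamide, 1.596 and 1.58 under DHT and -0.23 and -0.27 under enzalutamide.

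The promoters of list members that hold the endoplasmic reticulum stress element are shown because this element is read by ATF6, XBP1 and NF-Y, which relay the stress response to these genes. Capitals mark its fixed letters, CCAAT and CCACG with any 9 bases between, on either strand, and 20 bases are given on each side.
HSPA5 (chr9:125241371-125241429, minus strand): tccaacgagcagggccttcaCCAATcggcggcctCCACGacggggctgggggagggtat
HSP90B1 (chr12:103930196-103930359, plus strand): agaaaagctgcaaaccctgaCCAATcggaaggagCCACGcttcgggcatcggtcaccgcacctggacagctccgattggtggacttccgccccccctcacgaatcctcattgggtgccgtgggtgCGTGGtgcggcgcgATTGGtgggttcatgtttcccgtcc
PDIA6 (chr2:10812833-10812891, minus strand): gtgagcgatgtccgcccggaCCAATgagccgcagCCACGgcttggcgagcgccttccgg
XBP1 (chr22:28800583-28800641, minus strand): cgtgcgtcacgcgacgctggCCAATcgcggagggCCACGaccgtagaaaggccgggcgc
CRELD2 (chr22:49918534-49918592, plus strand): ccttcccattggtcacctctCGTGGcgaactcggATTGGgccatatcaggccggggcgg
CALR (chr19:12938364-12938422, plus strand): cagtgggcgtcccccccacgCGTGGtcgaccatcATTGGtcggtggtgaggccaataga
The first word begins 66 bases before the start in HSPA5, 86 in PDIA6, 52 in XBP1, 80 in CRELD2 and 225 in CALR. HSP90B1 holds the word at 194 and at 89 bases. In all it was found in 6 of 22 list members with a window (27.3%), against 16 of 11987 genes tested with a window (0.133%) and 25 of all 27305 (0.092%). The log2 changes of these members were 0.95 for HSPA5, 0.71 for HSP90B1, 0.64 for PDIA6, 0.77 for XBP1, 1.31 for CRELD2 and 0.66 for CALR. All 16 other members with a window rose without the word in it.

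The secretory pathway moved with the folding genes. All 30 tested members, which translocate proteins into the reticulum or move them to the Golgi, were called higher, where 12.4% of all genes were. The median log2 change was 0.77, and 1.26 under DHT alone. SEC24D, a cargo adaptor of export vesicles, had 131 and 138 CPM under DHT plus enzalutamide, against 49.9 and 47.05 CPM in control, a log2 change of 1.47 (SE 0.07, adjusted p = 2.8e-42). SEC61A1, the channel of the translocon, had a log2 change of 1.06 (SE 0.05, adjusted p = 4.7e-43), and SSR3, a subunit beside it, one of 1.15 (SE 0.05, adjusted p = 2e-44). The smallest rise was that of SPCS1, a signal peptidase subunit, with 0.31. Against DHT alone, 29 of 30 members were lower and 0 higher, where 13.2% of all genes were lower and 13.7% higher.

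Sterol synthesis genes rose to a median near that under DHT alone. Of 24 tested cholesterol genes 22 were called higher and 0 lower, where 12.4% of all genes were higher and 10.3% lower. The median log2 change was 0.92, against 1.15 under DHT alone. INSIG1, a sterol-regulated retention factor, had 236 and 213 CPM under DHT plus enzalutamide, 298 and 298 CPM under DHT, 66.1 and 48.5 CPM under enzalutamide and 66.8 and 58.6 CPM in control, a log2 change over control of 1.84 (SE 0.08, adjusted p = 4.7e-19). HMGCS1, the enzyme that makes HMG-CoA, had a log2 change of 1.26 (SE 0.06, adjusted p = 5.6e-45), and DHCR7, which catalyses the last step, one of 1.096 (SE 0.06, adjusted p = 2.4e-36). STARD4, a sterol carrier, did not pass the test, with 1.26. In the direct test 8 of 24 members were lower under the combination than under DHT alone and 1 higher, with a median log2 difference of -0.17. Of all genes 13.2% were lower and 13.7% higher in that test. The list's mean log2 level above control was 0.89 and 0.87 under DHT plus enzalutamide and 1.11 and 1.14 under DHT. The sterol regulatory element TCACNCCAC was found in 1 of 17 called members with a window (5.88%), SREBF2, against 1.39% of 27305 genes.

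Fatty acid synthesis followed in part. The counts of this and the amino acid list are to be set against 12.4% of all genes called higher and 10.3% called lower. Of 16 tested genes 11 were called higher and 1 lower, with a median of 0.64; without control replicate 2, or without replicate 2 of the combination, none was called lower. FADS2, a desaturase, rose by 1.48 (SE 0.08, adjusted p = 1.3e-37) on the log2 scale, FASN, fatty acid synthase, by 1.23 (SE 0.04, adjusted p = 3.3e-54), and SCD, stearoyl-CoA desaturase, by 1.16 (SE 0.05, adjusted p = 2.8e-45). ACSL4, an acyl-CoA synthetase for polyunsaturated fatty acids, was the member called lower, with -0.68. Of 19 genes of amino acid transport and metabolism 13 were called higher and 2 lower. SLC1A4, a neutral amino acid transporter, rose by 1.496 (SE 0.09, adjusted p = 3.9e-35), SHMT2, mitochondrial serine hydroxymethyltransferase, by 1.19 (SE 0.05, adjusted p = 2.8e-45) and the glutamine transporter gene SLC1A5 by 1.100 (SE 0.06, adjusted p = 1.2e-37). The members called lower, BCAT2 with -0.29 and SLC7A2 with -0.15, numbered 1 without control replicate 1 and 0 without control replicate 2 or replicate 2 of the combination.

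**Figure D3:**
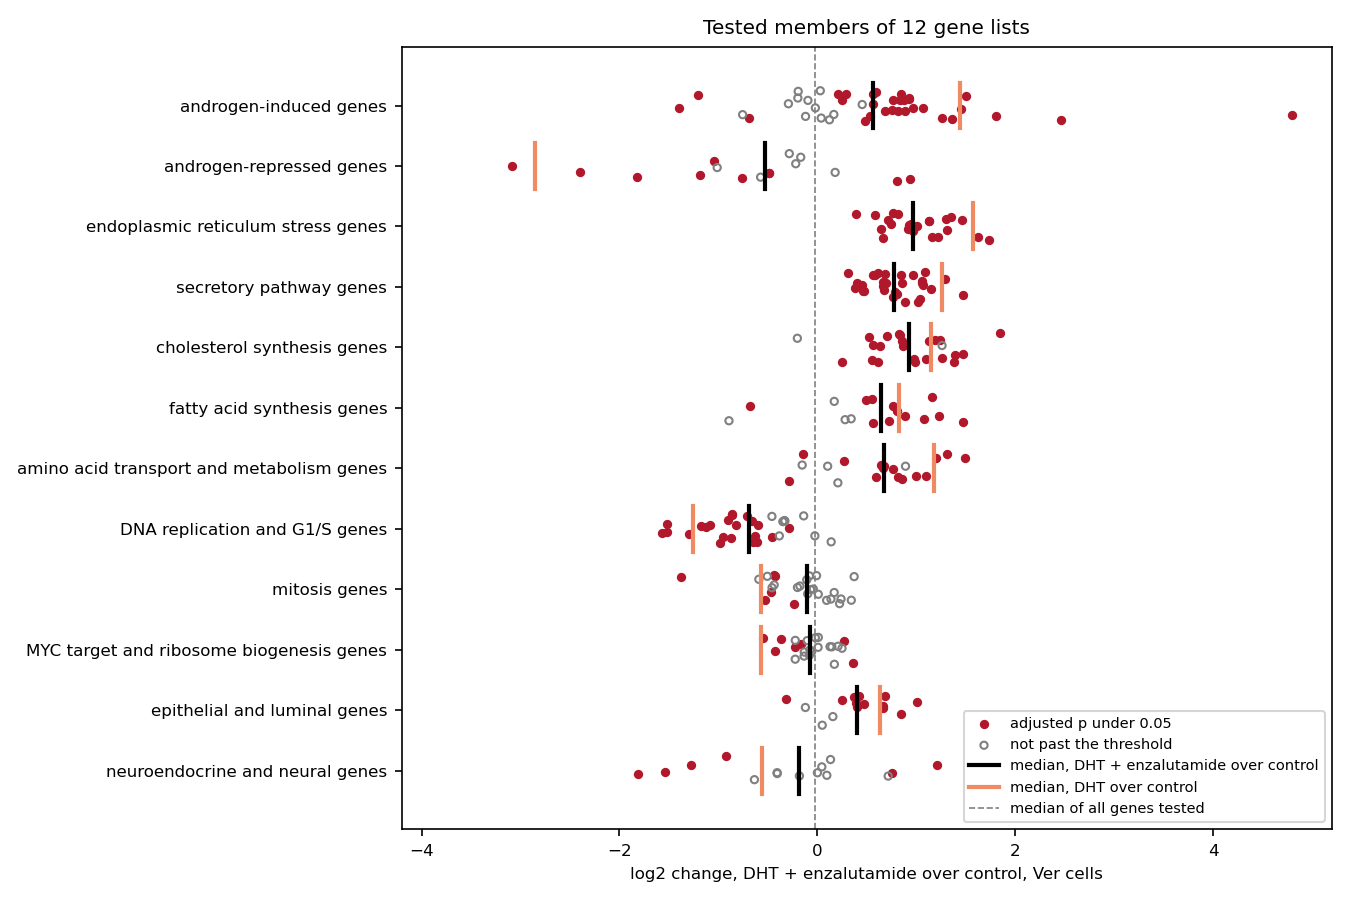
Log2 change under DHT plus enzalutamide over control in Ver cells (horizontal axis) of every tested member of 12 gene lists (rows); filled red points passed the test, open gray points did not, black bars give the list's median, orange bars its median under DHT alone and the dashed line the median of all genes. All points of the endoplasmic reticulum stress and secretory pathway lists lie to the right of 0, and those of DNA replication mostly to the left, with a median of -0.69.

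Genes of DNA replication fell. Of 30 tested members 22 were called lower and 0 higher, where 10.3% of all genes were lower, with a median log2 change of -0.69 and of -1.26 under DHT alone. MCM5, a subunit of the replicative helicase, had 15.6 and 14.6 CPM under DHT plus enzalutamide, 7.49 and 7.84 CPM under DHT, 41.9 and 38.3 CPM under enzalutamide and 44.7 and 42.1 CPM in control. Its log2 change over control was -1.52 (SE 0.13, adjusted p = 7.4e-21), and the libraries with both compounds lay between DHT alone and control without overlap. MCM2 had a log2 change of -1.295 (SE 0.11, adjusted p = 3e-21) and MCM4 one of -1.18 (SE 0.08, adjusted p = 5.1e-29); all are parts of the same helicase ring. FEN1 (0.14), CDC6 (-0.03) and POLE (-0.14) did not pass the test. Against DHT alone 18 members were higher under the combination and 2 lower; without replicate 1 of the combination 11 were higher, and without DHT replicate 1 12 were. Of all genes 13.7% were higher and 13.2% lower under the combination than under DHT alone. In each library the list's mean log2 level relative to control was -0.58 and -0.69 under DHT plus enzalutamide, -1.05 and -1.02 under DHT and 0.03 and -0.05 under enzalutamide.

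Members with the word TTTCCCGC, the core of a site for E2F factors, which drive replication genes at the start of S phase, are shown because several members of the helicase and its loading and clamp factors hold it. Capitals mark the word on either strand, again with 20 bases on each side.
MCM3 (chr6:52284889-52284936, minus strand): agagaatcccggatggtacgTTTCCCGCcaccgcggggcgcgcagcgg
MCM7 (chr7:100101557-100101604, minus strand): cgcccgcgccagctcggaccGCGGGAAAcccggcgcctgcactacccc
PCNA (chr20:5126654-5126701, minus strand): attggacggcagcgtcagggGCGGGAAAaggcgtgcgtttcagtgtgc
GINS2 (chr16:85688958-85689005, minus strand): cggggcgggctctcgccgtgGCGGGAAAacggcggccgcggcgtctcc
CDT1 (chr16:88803734-88803781, plus strand): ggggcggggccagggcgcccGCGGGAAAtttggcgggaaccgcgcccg
TYMS (chr18:657594-657641, plus strand): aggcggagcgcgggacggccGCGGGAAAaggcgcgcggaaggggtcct
It begins 174 bases before the start in MCM3, 187 in MCM7, 59 in PCNA, 31 in GINS2, 35 in CDT1 and 39 in TYMS. These are 6 of the 19 called members with a window (31.6%), against 367 of 11987 genes tested with a window (3.06%) and 540 of all 27305 (1.98%). Their log2 changes were -0.86 for MCM3, -0.66 for MCM7, -0.65 for PCNA, -0.96 for GINS2, -0.61 for CDT1 and -0.87 for TYMS. GINS3 holds the word too and was not called, with -0.33.

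Mitosis genes moved less. Of 26 tested, 6 were called lower and 0 higher, where 10.3% of all genes were lower, and 3 were called lower without replicate 1 of the combination and also without replicate 2. The median log2 change was -0.10, against -0.57 under DHT alone. MAD2L1, a spindle checkpoint protein, had 4.502 and 6.53 CPM under DHT plus enzalutamide, against 14.2 and 14.5 CPM in control, a log2 change of -1.38 (SE 0.21, adjusted p = 1.6e-08). MKI67, the proliferation antigen, had a log2 change of 0.24 and CCNB1, cyclin B1, one of -0.20, and neither passed the test. Relative to control the list's mean log2 level was -0.13 and -0.16 under DHT plus enzalutamide, -0.56 and -0.40 under DHT and 0.35 and 0.21 under enzalutamide. CDKN1A, the cyclin-dependent kinase inhibitor p21, had 110.3 and 115 CPM under DHT plus enzalutamide, 222 and 211 CPM under DHT, 39.8 and 38.4 CPM under enzalutamide and 40.8 and 38.6 CPM in control, a log2 change over control of 1.505 (SE 0.08, adjusted p = 2.7e-40). It was 1 of 2 of 17 p53 target and arrest genes called higher, with SESN2 (1.01), while 4 were called lower, where 12.4% of all genes were higher and 10.3% lower. Of 23 MYC target and ribosome biogenesis genes 5 were called lower and 2 higher. DHT alone lowered 20 of them, where it lowered 22.9% of all genes. Under DHT plus enzalutamide NPM1, nucleophosmin, had -0.55 and FBL, fibrillarin, -0.37.

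**Figure D4:**
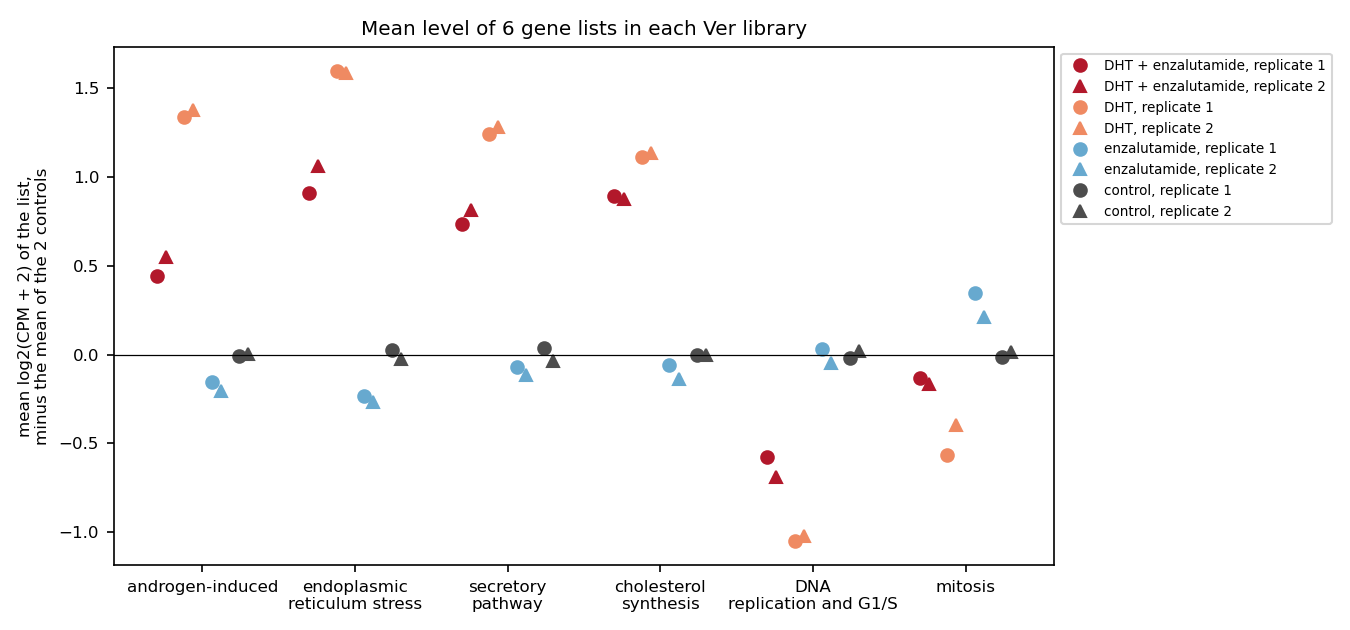
Mean log2(CPM + 2) of 6 gene lists in each of the 8 Ver libraries, minus the mean of the 2 controls (vertical axis), by list (horizontal axis); colours give the treatment, circles replicate 1 and triangles replicate 2. The cholesterol list under DHT plus enzalutamide (0.89 and 0.87) is near its DHT level (1.11 and 1.14), while the androgen-induced list (0.44 and 0.55) is well below it (1.33 and 1.38).

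The largest rises among genes of at least 5 CPM included secreted proteins and a regulator of secretory cells. AZGP1 (chr7:99966720-99976157), a secreted lipid-mobilising glycoprotein, had 10.1 and 11.8 CPM under DHT plus enzalutamide, 21.1 and 19.6 CPM under DHT, 1.38 and 1.36 CPM under enzalutamide and 1.26 and 1.88 CPM in control, a log2 change of 2.78 (SE 0.31, adjusted p = 6.7e-17). BHLHA15 (MIST1), a transcription factor of secretory cells, had 16.9 and 28.7 CPM under DHT plus enzalutamide, 47.9 and 50.1 CPM under DHT, 1.84 and 2.72 CPM under enzalutamide and 3.01 and 3.67 CPM in control, and replicate 2 of the combination was the higher one; its log2 change was 2.76 (SE 0.22, adjusted p = 2.3e-24). GDF15, a stress-induced cytokine, had 156 and 187 CPM under DHT plus enzalutamide, 291 and 283 CPM under DHT, 33.1 and 34.9 CPM under enzalutamide and 40.9 and 41.7 CPM in control, a log2 change of 2.05 (SE 0.07, adjusted p = 9e-57). In each of these genes the libraries with both compounds lay between control and DHT without overlap. LAMP3, a lysosomal membrane protein, rose by 2.25, LOX, which crosslinks collagen, by 2.03, DISP2, a relative of the hedgehog-releasing protein Dispatched, by 2.43, and DBI by 2.46 on the log2 scale. FAM189A2 rose by 2.21, EFCAB12 by 2.07, RFPL2 by 1.82 and the pseudogene AC011487.1 by 3.24.

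The largest falls took several extracellular and signalling genes to a few CPM. CLEC3A (chr16:78022515-78066761), a C-type lectin, had 0.628 and 1.37 CPM under DHT plus enzalutamide, 0 and 0.0923 CPM under DHT, 16.6 and 16.2 CPM under enzalutamide and 10.2 and 11 CPM in control, a log2 change of -3.39 (SE 0.39, adjusted p = 8.7e-18). NOV, a matricellular growth regulator, had 0.628 and 1.58 CPM under DHT plus enzalutamide, against 8.73 and 10.1 CPM in control, a log2 change of -3.08 (SE 0.36, adjusted p = 2e-17). MGP, matrix Gla protein, an inhibitor of calcification, had 3.66 and 1.79 CPM under DHT plus enzalutamide, against 16.7 and 17.6 CPM in control, a log2 change of -2.65 (SE 0.24, adjusted p = 6.2e-22). All 3 had at most 3.66 CPM in the libraries with both compounds and at least 8.73 CPM in control. PTGER2, a prostaglandin E2 receptor, had 2.303 and 2.42 CPM under DHT plus enzalutamide, 2.497 and 2.03 CPM under DHT, 21.2 and 19.97 CPM under enzalutamide and 12.8 and 11.7 CPM in control, and the ranges of the combination and of DHT alone overlapped; the log2 difference between them was 0.06 (SE 0.32, adjusted p = 0.926). GPR85, an orphan receptor, fell by 2.33, the adhesion molecule MCAM by 2.25, SOBP by 2.25, ASZ1 by 2.17 and the kinase gene BMX by 2.05 on the log2 scale. PPFIA2, a liprin, fell by 2.83, and PPFIA2-AS1, which overlaps it on chromosome 12, fell by 3.72; with counting that ignored strand, their reads cannot be told apart.

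Luminal and epithelial genes were mostly higher: of 15 tested, 11 were called higher and 1 lower. For this list and the next, 12.4% of all genes were called higher and 10.3% lower. KRT18 stood at 0.84 (SE 0.06, adjusted p = 2.6e-29), KRT8 at 0.68 (SE 0.05, adjusted p = 2.2e-26) and the splicing regulator ESRP1 at 0.67 (SE 0.06, adjusted p = 9.6e-22). Prostate secretory genes were split. FOLH1, prostate-specific membrane antigen, had 191 and 165 CPM under DHT plus enzalutamide, 37.5 and 38.7 CPM under DHT, 504 and 464 CPM under enzalutamide and 425 and 395 CPM in control, a log2 change of -1.21 (SE 0.06, adjusted p = 2.1e-40). ACPP, prostatic acid phosphatase, had 2371 and 2205 CPM under DHT plus enzalutamide, 1175 and 1186 CPM under DHT, 5453 and 5205 CPM under enzalutamide and 4565 and 4572 CPM in control, a log2 change of -0.998 (SE 0.04, adjusted p = 4.2e-47). Both were lower than in every control and higher than in every DHT library. In that list 10 of 16 were called higher, among them SMS, spermine synthase, with 0.91, and 4 lower, which was 2 without replicate 2 of the combination.

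Genes of neuroendocrine and neural cells moved both ways: 2 of 15 were called higher and 4 lower, where 12.4% of all genes were higher and 10.3% lower. ENO2, neuron-specific enolase, had 4.92 and 7.05 CPM under DHT plus enzalutamide, against 19.4 and 15.5 CPM in control, a log2 change of -1.54 (SE 0.21, adjusted p = 3e-10), and PEG10 had 150.4 and 142 CPM under DHT plus enzalutamide, against 355 and 352 CPM in control, a log2 change of -1.27 (SE 0.06, adjusted p = 4.9e-47). SYP, synaptophysin, had 14.97 and 13.5 CPM under DHT plus enzalutamide, against 5.14 and 7.07 CPM in control, a log2 change of 1.21 (SE 0.20, adjusted p = 7.4e-08). The summed counts of 4 neuroendocrine markers were 800 and 640 under DHT plus enzalutamide and 452 and 484 in control. Of 13 glucocorticoid receptor targets 7 were called higher, among them MT2A (1.06) and NFKBIA (0.59), and 1 lower, FOXO3 (-0.52). Against DHT alone all 13 were lower, where 13.2% of all genes were. NR3C1, the glucocorticoid receptor gene, had 9.74 and 6.95 CPM under DHT plus enzalutamide, against 12.6 and 9.21 CPM in control and a log2 change of -0.38 (adjusted p = 0.207), which did not pass the test.

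Lumican (LUM), counted here as a stromal marker, had 23.9 and 17.3 CPM under DHT plus enzalutamide, 0.803 and 1.2 CPM under DHT, 73.8 and 81.1 CPM under enzalutamide and 57.2 and 49.6 CPM in control, a log2 change over control of -1.38 (SE 0.13, adjusted p = 3.9e-18). It made up most of the 8 stromal and endothelial markers, which summed to 293 and 193 counts under DHT plus enzalutamide and to 625 and 594 counts in control, with COL1A2 and CDH5 at 0 in all 4 libraries. VWF, von Willebrand factor of endothelial cells, had 27 and 12 counts under DHT plus enzalutamide, against 6 and 3 counts in control. Its log2 change was 2.25 (SE 0.76, adjusted p = 0.0116), and the call was lost without control replicate 2 (adjusted p = 0.15) or replicate 1 of the combination (adjusted p = 0.27). Of 6 tested genes of this class LUM was thus called lower, VWF higher and the others were not called. The libraries come from cultures of a cancer cell line. Whether fewer of its cells expressed a marker or each held less of its RNA was not tested. With 12.4% of all genes called higher and 10.3% lower, of 12 genes of androgen synthesis and metabolism 2 were called higher and 4 lower, among them AKR1C3, which makes testosterone from androstenedione, with a log2 change of -1.03 (SE 0.10, adjusted p = 2e-17); its close homologues can share reads with it. Of 23 hypoxia and glycolysis genes 8 were called higher, with VEGFA, the angiogenic growth factor, at 0.96 (SE 0.06, adjusted p = 2e-31). Another 3 were called lower, which was 1 without control replicate 2 and 0 without replicate 2 of the combination. Interferon response genes gave 1 higher and 1 lower of 17, and the mitochondrially encoded genes 0 higher and 1 lower of 13; the single mitochondrial call, MT-CO1, was lost without control replicate 1 (adjusted p = 0.0627).

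The counts of the lists that follow are to be set against the shares of all genes, 12.4% higher and 10.3% lower. Of 20 steroid receptor and co-regulator genes 4 were called higher, among them the co-chaperone gene PTGES3 (0.26), and 3 lower, which was 0 without control replicate 1 or replicate 1 of the combination. Immediate early and growth signalling genes gave 4 higher and 6 lower of 22; 3 were lower without control replicate 2. ATF3, a stress-induced transcription factor, had 14.9 and 17.2 CPM under DHT plus enzalutamide, against 6.11 and 5.099 CPM in control, a log2 change of 1.52 (SE 0.20, adjusted p = 4.6e-11), and IGFBP3, a binding protein of insulin-like growth factors, one of -1.26 (SE 0.06, adjusted p = 3.6e-37). Basal prostate genes gave 3 higher and 0 lower of 9, with 1 higher without control replicate 1, and the one with the smallest adjusted p was ITGA6 (0.44), an integrin subunit. KRT14, a basal keratin, was another, with 22 and 12 counts under DHT plus enzalutamide, against 3 and 6 counts in control, and a log2 change of 2.07 (SE 0.78, adjusted p = 0.0294). The KRT14 call was lost without control replicate 1 (adjusted p = 0.216), control replicate 2 (adjusted p = 0.0725) or replicate 1 of the combination (adjusted p = 0.287). Of 12 heat shock genes 3 were called higher, which was 1 without control replicate 2 and 0 without replicate 2 of the combination. Of 5 tested mesenchymal genes LOX was called higher and CDH2 lower (-1.58), the CDH2 call being lost without control replicate 1 (adjusted p = 0.148) or replicate 1 of the combination (adjusted p = 0.2). None of 3 tested immune markers was called.

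Set directly against DHT alone, the combination differed at 6076 genes (26.9%): 3098 were higher and 2978 lower. Set against enzalutamide alone it differed at 6209 genes (27.5%), of which 3321 were higher (14.7%) and 2888 lower (12.8%). In this test at constant drug 31 of 42 androgen-induced genes were higher and 3 lower, all 23 folding genes and all 30 secretory genes were higher, and 19 of 30 replication genes were lower. KLK3 was higher than under enzalutamide alone by 1.25 (SE 0.10, adjusted p = 9.1e-25) on the log2 scale, SLC45A3 by 2.099 (SE 0.05, adjusted p = 3.2e-78), TMPRSS2 by 0.96 (SE 0.06, adjusted p = 6e-32) and PMEPA1, an inhibitor of TGF-beta signalling, by 1.698 (SE 0.05, adjusted p = 1.8e-70). Several androgen-induced genes were lower under enzalutamide alone than in control, so this contrast is larger for them: SLC45A3 had a log2 change of -0.84 under the drug alone, PMEPA1 -0.94 and TMPRSS2 -0.48. UGT2B17 was lower than under enzalutamide alone, with a log2 difference of -1.32 (adjusted p = 0.00611), but not without replicate 1 of the combination (adjusted p = 0.0896) or enzalutamide replicate 2 (adjusted p = 0.106).

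In Vc cells the combined treatment changed 6418 genes (28.5%), and a test of the difference between the lines found 402 genes (1.78%). By signed log2 change, the effect was lower in Ver at 239 of them (1.06%) and higher at 163 (0.723%). A gene that fell less in Ver thus counts as higher. Leaving out 1 of the 8 libraries gave 202 to 358 genes, the fewest without Ver replicate 1 of the combination. In FKBP5 the effect was smaller in Ver: it had 114 and 149 CPM under DHT plus enzalutamide and 68.95 and 74.1 CPM in control in Ver, against 228 and 253 and 64.7 and 63.1 CPM in Vc. The log2 difference of the effects, Ver minus Vc, was -1.03 (SE 0.11, adjusted p = 5.4e-07). SLC45A3 had 1149 and 1195 CPM under DHT plus enzalutamide and 464 and 513 CPM in control in Ver, against 1776 and 1891 and 491 and 527 CPM in Vc, and a difference of -0.59 (SE 0.07, adjusted p = 2.9e-11). For PMEPA1 the difference was -0.52 (SE 0.06, adjusted p = 6.7e-10). KLK3 was raised by 1.07 in Ver and by 1.19 in Vc on the log2 scale, and the difference of -0.12 (SE 0.13, adjusted p = 0.823) did not pass the test.

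In the androgen-induced list, the effect was lower in Ver at 15 of 42 members (1.06% of all genes) and higher at 2 (0.723% of all genes), with a median difference of -0.27. Leaving out 1 library gave 9 to 17 lower, with 9 both without Vc replicate 2 and without Ver replicate 1 of the combination, and 10 without Vc control replicate 1 or Vc replicate 1 of the combination. MYC fell less in Ver, with a difference of 0.39 (SE 0.08, adjusted p = 0.00037), and so did UGT2B15, with 0.89 (SE 0.15, adjusted p = 1.8e-05). UGT2B15 had 51.5 and 48.6 CPM under DHT plus enzalutamide and 86.7 and 83.5 CPM in control in Ver, against 15.3 and 13.5 and 48.97 and 41.8 CPM in Vc. The folding, secretory and cholesterol lists gave 2, 2 and 1 members with a lower effect in Ver and none with a higher one, and the replication list gave none in either direction. Of 13 mitochondrially encoded genes 8 had a higher effect in Ver and none a lower one, with a median difference of 0.27. In Vc 12 of them were called lower, where 2967 of all 22553 genes were, with a median log2 change of -0.26. That count of 8 turned on single libraries: it was 0 without Vc control replicate 1, 1 without replicate 2 of the combination in Vc or in Ver, 2 without Ver control replicate 1, 4 without Vc replicate 1 of the combination, 5 without Ver replicate 1 of the combination and 4 in DESeq2. A difference that misses the threshold does not show that the lines act alike. CLSTN2, a synaptic calsyntenin, had 115 and 96.3 CPM under DHT plus enzalutamide and 115 and 110.2 CPM in control in Ver, against 28.7 and 31.1 and 75.2 and 76.5 CPM in Vc, and a difference of 1.26 (SE 0.11, adjusted p = 7.7e-18). GPX3, a secreted glutathione peroxidase, was lower than control in Ver and higher than control in Vc, with log2 changes of -0.48 and 0.82 and a difference of -1.29 (SE 0.10, adjusted p = 3.4e-21).

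**Figure D5:**
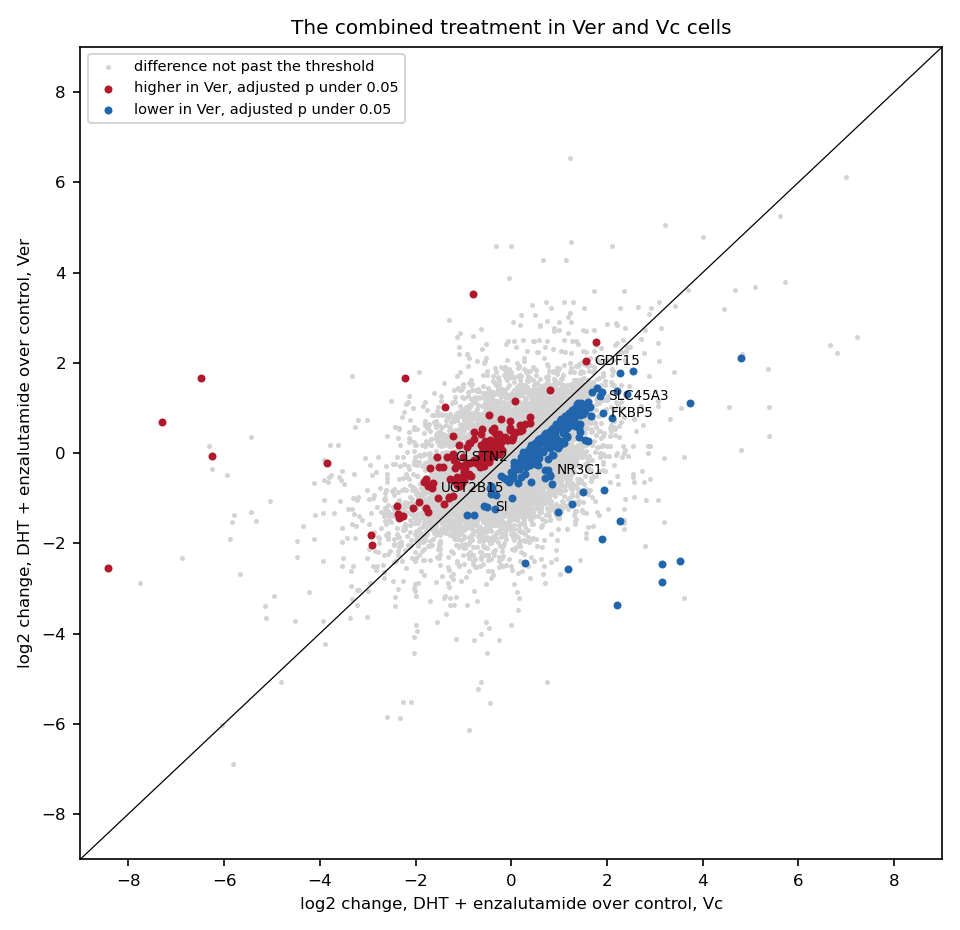
Log2 change under DHT plus enzalutamide over control in Ver (vertical axis) against that in Vc (horizontal axis), 1 point for each gene tested, with the line of equal change. Red points had a higher signed log2 change in Ver (163 genes), blue points a lower one (239 genes), and gray points did not pass the test of the difference. FKBP5 lies below the line and UGT2B15 and CLSTN2 above it.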

How the data were processed

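RNA of the polyA fraction was sequenced in 16 libraries of VCaP-derived Ver and Vc cells, 2 in each of 8 groups. The authors deposited whole-number read counts per gene, 1 file a library; per the submitters' processing notes, reads were checked with FastQC 0.11.7, trimmed with Trimmomatic 0.36-5, aligned to GRCh38 with HISAT2 and SAMtools, and counted with HTSeq 0.11.1. The deposited file names give union mode and counting without strand, so antisense and overlapping genes cannot be separated and reads shared by paralogs may be dropped. Each count file's 5 summary lines were left out of library sizes. Of 58302 gene IDs 58039 were found in GENCODE release 29, which gave symbols and positions.

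Counts were filtered with filterByExpr (22553 genes kept), TMM-normalised and fitted with edgeR 4.0.16 in R 4.3.3 by robust quasi-likelihood over all 8 groups, which leaves 8 residual degrees of freedom; the common biological coefficient of variation was 6.01%. Adjusted p-values are two-sided quasi-likelihood tests with Benjamini-Hochberg adjustment over all genes tested, called under 0.05. Log2 changes use a prior count of 0.125, CPM use TMM-adjusted library sizes, and a standard error is the larger of the model's and the Poisson one. Alternatives were DESeq2 1.42.0, size factors, other filters, a replicate block, the contrast's groups alone and leaving out each library.

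The comparison, the 26 gene lists and the markers were chosen with earlier results of these data known, so list counts are descriptions and no set test was run. Genes were named by rule: a fixed set of androgen targets, the 12 largest rises and 12 largest falls at a mean of 5 CPM or more, in every list the 3 with the lowest adjusted p, and the 6 largest differences between the lines in each direction. Other list members named were chosen after their values were seen, and results of some genes are not reported here. Promoter stretches are RefSeq's (GRCh38.p14, matched by symbol); a word in one is a description and not a binding site.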

Additional observations from a re-analysis of the deposited data

Results flagged for a closer look

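The test of the difference between the lines singled out 28 of the 127 genes named. Their response to DHT plus enzalutamide in Ver departed from that in Vc at an adjusted p under 0.05, as in 1.78% of all genes tested. The 6 genes in each direction with the largest difference had been named by that same test, so their calls were fixed in advance. HPGD was named after its values were seen. Values are signed log2 differences of the effects, Ver minus Vc. For a gene that fell in both lines, a positive value is a smaller fall in Ver and a negative value a larger one. Line and lane cannot be told apart in them.

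Among the 14 genes with a negative difference were the androgen targets FKBP5 (-1.03), SLC45A3 (-0.59) and PMEPA1 (-0.52). SI, sucrase-isomaltase, listed as androgen-repressed, differed by -0.68, and VEGFA by -0.47. The calcium channel subunit gene CACNG4 differed by -1.33, the pseudogene FAR2P4 by -1.33 and GPX3 by -1.29. These calls were kept when any of the 8 libraries was left out. The call of ZNF823 (-1.26) was lost without Ver control replicate 1 (-1.07, adjusted p = 0.0714). NR3C1 (-1.16) was lost without any of 5 libraries, with an adjusted p of 0.3 without Ver control replicate 1. POTEJ (-1.32), whose family shares near-identical sequence, was lost without any of 5 libraries, with an adjusted p of up to 0.373. AC069029.1 (-1.53) was lost without any of 3, with up to 0.232, and SLC1A5 (-0.29) without any of 5, with up to 0.401, and also when no low-count filter was used (-0.28).

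Among the 14 genes with a positive difference were UGT2B15 (0.89), which can share reads with UGT2B17, and MYC (0.39). UGT2B15, MYC, ACPP and HPGD fell less in Ver than in Vc. CLSTN2 differed by 1.26, the LIM-domain gene LMCD1 by 1.37, MOCOS, molybdenum cofactor sulfurase, by 1.25, and the small nucleolar RNA SNORA49, which polyA selection captures poorly, by 1.601. These calls too were kept when any of the 8 libraries was left out. The call of GDF15 (0.48) was lost without Ver replicate 2 of the combination (0.35, adjusted p = 0.109) and that of LRRC20 (1.27) without Ver replicate 1 of the combination (1.05, adjusted p = 0.114). ACPP (0.29) was lost without either of 2 libraries, with an adjusted p of up to 0.0553. SLC6A17 (1.31) and GATA2 (0.30) were each lost without any of 4, with up to 0.183 and 0.0825. DBI (0.68) was lost without any of 4, with up to 0.195, and in DESeq2 (adjusted p = 0.0952), and MT-ND2 (0.29) without any of 3, with up to 0.196, and in DESeq2 (adjusted p = 0.113). HPGD (0.38) was lost without any of 5, with up to 0.471. The cause of these differences was not tested.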

How the results depend on the processing

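For DHT plus enzalutamide against control in Ver, 5117 genes were called; the alternatives gave 3591 (without replicate 2 of the combination) to 5281, with 5098 by size factors, 4573 with no low-count filter, 4791 for genes of at least 5 CPM, 5008 with only the 2 groups fitted and 4198 by DESeq2. Calls higher were 2788 of the 5117; their share was 49.9% for genes of at least 5 CPM and up to 58.8% without 1 library. The 127 genes named include HPGD, CYP1A1, INSM1 and DNAH8, named after their values were seen. None of the 127 changed direction in an alternative where that fit or the reported one called it. Sign changes of genes called in neither fit were not counted. Some calls were lost without control replicate 1, without control replicate 2, and without replicate 1 or replicate 2 of the combination. Calls lost numbered 4 of 124 in DESeq2, 3 with no filter and 1 with only the contrast's groups. The difference between the lines, 402 genes, ranged from 202 to 358 without 1 library and was 299 in DESeq2, 331 with no filter and 442 at 5 CPM. The replicate numbers share no stated batch, and the deviations of same-numbered libraries correlated over 12428 genes at -0.10 for the combination with control, 0.12 for the combination with DHT, -0.02 for the combination with enzalutamide and -0.12 for DHT with control in Ver. A replicate block gave 5126 calls against control, 430 for the difference between lines, 6102 against DHT and 6208 against enzalutamide; a crossed block, chosen after seeing the data, gave 5281. With 9554571 counts in the shallowest library, 1 CPM is about 10 reads, and genes near that level are limited by counting.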

Other observations

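The genes below were chosen after their values were seen, because their level under DHT plus enzalutamide lay outside the levels under DHT alone, enzalutamide alone and control. SPRY4, an inhibitor of receptor tyrosine kinase signalling, had 43.7 and 46.3 CPM under DHT plus enzalutamide, 20.1 and 16.1 CPM under DHT, 22.2 and 21.7 CPM under enzalutamide and 17.6 and 17.4 CPM in control, so it was highest in the libraries with both compounds. Its log2 change over control was 1.37 (SE 0.12, adjusted p = 4.4e-21), and 0.05 under DHT alone. INSM1, a zinc-finger factor of neuroendocrine cells, had 64.6 and 50.6 CPM under DHT plus enzalutamide, 22.8 and 22.5 CPM under DHT, 36.1 and 27.7 CPM under enzalutamide and 35.5 and 32.8 CPM in control, a log2 change over control of 0.75 (SE 0.12, adjusted p = 1e-07). DNAH8, an axonemal dynein heavy chain, had 13.3 and 16.3 CPM under DHT plus enzalutamide, 6.42 and 7.84 CPM under DHT, 5.18 and 6.35 CPM under enzalutamide and 6.01 and 5.46 CPM in control, a log2 change over control of 1.37 (SE 0.20, adjusted p = 6.1e-09).

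In the other direction, CYP1A1, a cytochrome P450 induced by the aryl hydrocarbon receptor, had 5.13 and 6.95 CPM under DHT plus enzalutamide, 26.5 and 24.8 CPM under DHT, 10.4 and 11.98 CPM under enzalutamide and 13.1 and 16.7 CPM in control. It was lowest in the libraries with both compounds and highest under DHT alone, with a log2 change over control of -1.31 (SE 0.19, adjusted p = 7e-10) for the combination and of 0.78 for DHT alone. HPGD, which inactivates prostaglandin E2, had 48.1 and 58.8 CPM under DHT plus enzalutamide, 169 and 176 CPM under DHT, 108 and 107 CPM under enzalutamide and 85.5 and 86.8 CPM in control, with log2 changes over control of -0.69 (SE 0.07, adjusted p = 9.9e-15) for the combination and 1.004 for DHT alone.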
